A study of Mus musculus with 16 samples.

Results

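The mitochondrial ribosome translates the few proteins that the mitochondrial genome encodes, all of them subunits of the respiratory chain and ATP synthase. Its RNAs come from mitochondrial DNA, and its proteins are encoded in the nucleus, made in the cytoplasm and imported. The large subunit holds the peptidyl transferase centre and the exit tunnel, and the small subunit binds the mRNA and holds the decoding centre. Many of the proteins descend from bacterial ribosomal proteins, and others exist only in mitochondrial ribosomes. The genes described here are the protein-coding mouse genes whose symbol is Mrpl (large subunit) or Mrps (small subunit) followed by a number, without pseudogenes. The rule found 78 of the 55359 gene IDs in the deposited tables, 49 Mrpl and 29 Mrps. Of these, 77 passed the filter on low counts and were tested. The remaining gene, Mrpl53, a large-subunit protein, had 0 to 2 counts per library, and 88.0% of its exon sequence is shared with other annotated genes. The symbols are not a perfect guide to structure: Mrps30 and Mrps18a carry small-subunit symbols but their proteins sit in the large subunit, and the product of Mrps36 has been assigned to the oxoglutarate dehydrogenase complex.

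Total RNA of mouse fetal cortex from gestational day 16 was sequenced in 16 libraries, 2 in each of 8 groups set by fetal sex and by parental ethanol (EtOH) exposure: Control (neither parent), Paternal EtOH, Maternal EtOH and Dual EtOH (both parents). All libraries were made with the same total RNA kit, and the labels name no strain, dose, litter or number of animals per library. Nothing in the labels says that the libraries of a group came from separate fetuses, so p-values here speak of differences between libraries only. The study asked how alcohol taken by the father, the mother or both parents bears on the offspring.

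Library totals ran from 15336566 to 19966696 counts in males and from 26134287 to 35218456 in females, so sex and depth cannot be told apart. The cortex markers Neurod6 (325 to 449.6 CPM, counts scaled to a common library size) and Emx1 (10.9 to 18.6 CPM) were present in every library. The mitochondrial rRNA mt-Rnr1 was at 235 to 12342 CPM in males and at 8.28 to 32.8 CPM in females. Sex and this rRNA content thus cannot be told apart either. Both female dual libraries stood apart from the rest. TEC and sense-intronic genes (transcript models that await experimental proof or lie inside introns) took 0.872% and 0.860% of their counts, against 0.325% to 0.391% in the other females and 0.280% to 0.534% in males. Malat1, a nuclear-retained long RNA, was at 5672 and 5847 CPM there, against 2704 to 3842 CPM in the other females and 2845 to 5042 CPM in males. The summed level of 4 blood markers was 278 to 284 CPM there and 417 to 515 CPM in female controls. The summed level of 4 endothelial markers was 133 to 148 CPM there and 133 to 217 CPM in female controls. The sum of 4 microglia markers was 19.1 to 27.1 CPM there and 31.2 to 36.6 CPM in female controls. For 6 meninges and fibroblast markers it was 160 to 164 CPM there, 62.0 and 277 CPM in the 2 female controls and 251 to 401 CPM in the other females. For 3 thalamus markers it was 33.2 to 52.1 CPM there and 42.7 and 94.5 CPM in the 2 female controls, which thus differ from each other. No marker of these lists was at 0 in any group. In dual against control females 2 blood markers, 1 endothelial and 1 thalamus marker were called lower by edgeR, 1 meninges marker was called higher and 0 microglia markers were called (3 at an unadjusted p under 0.05). The part of RNA composition in the female dual results below was not tested apart from those libraries. In bulk RNA, fewer cells of a type and less RNA per cell cannot be told apart.

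Levels are given per kilobase of all annotated exons of a gene merged, and the order of genes depends on that length, as given below. The median member lay at 8.18 RPKM (CPM per kilobase of exon) in the large subunit and at 5.35 RPKM in the small subunit, against 4.61 RPKM over the 15009 protein-coding genes tested. By this length Mrpl34, a homologue of a bacterial large-subunit protein, had the highest level, with a median of 37.1 RPKM (25.6 to 42.7 over the 16 libraries). It was followed by Mrpl50 (20.9 RPKM), Mrpl12 (19.96 RPKM), which forms the stalk that recruits translation factors, and Mrpl52 (17.5 RPKM). The ranges of Mrpl50, Mrpl12 and Mrpl52 overlapped each other, whereas the lowest library of Mrpl34 was above the highest of Mrpl50 (22.3 RPKM). In the small subunit Mrps21 led with 25.3 RPKM (22.5 to 30.6), above the highest library of Mrps23 (18.0 RPKM). Mrps23 had a median of 14.5 RPKM, Mrps24 12.3 RPKM and Mrps15 10.7 RPKM, with overlapping ranges.

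By merged exons, the lowest large-subunit members that were tested were Mrpl33 (1.66 RPKM), Mrpl48 (2.78 RPKM) and Mrpl23 (2.87 RPKM). In the small subunit they were Mrps34 (1.56 RPKM), Mrps25 (1.90 RPKM) and Mrps18b (2.23 RPKM). Mrps34 shares 77.8% and Mrps25 69.8% of its exon sequence with neighbouring genes. How the counting treated such reads is not given, so both levels are uncertain. By origin, small-subunit genes with a bacterial homologue had a median of 8.71 RPKM (16 genes) and those found only in mitochondria 4.36 RPKM (10 genes). In the large subunit the medians were 8.37 RPKM (30 genes) and 7.64 RPKM (21 genes).

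Divided by the length of the principal transcript in place of merged exons, which was chosen after seeing the data, the order of levels changed. In the large subunit Mrpl30 was then the highest (54.0 RPKM, 43.1 to 59.2), followed by Mrpl52 (46.5 RPKM) and Mrpl34 (37.1 RPKM, rank 3 of 48). The ranges of Mrpl30 and Mrpl52 overlapped. Mrpl33, whose merged exons are 15.3 times as long as its principal transcript, moved from the lowest to rank 6, at 25.4 RPKM, and Mrpl23 was at 20.25 RPKM. Mrpl17 (3.52 RPKM) was then the lowest. In the small subunit Mrps17 led with 66.8 RPKM (59.6 to 76.6), above Mrps21 (41.9 RPKM, 37.2 to 50.6), and the lowest were still Mrps25 (2.06 RPKM), Mrps34 (3.51 RPKM) and Mrps18b (4.31 RPKM). The medians became 12.9 RPKM in the large and 11.8 RPKM in the small subunit.

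**Figure D1:**
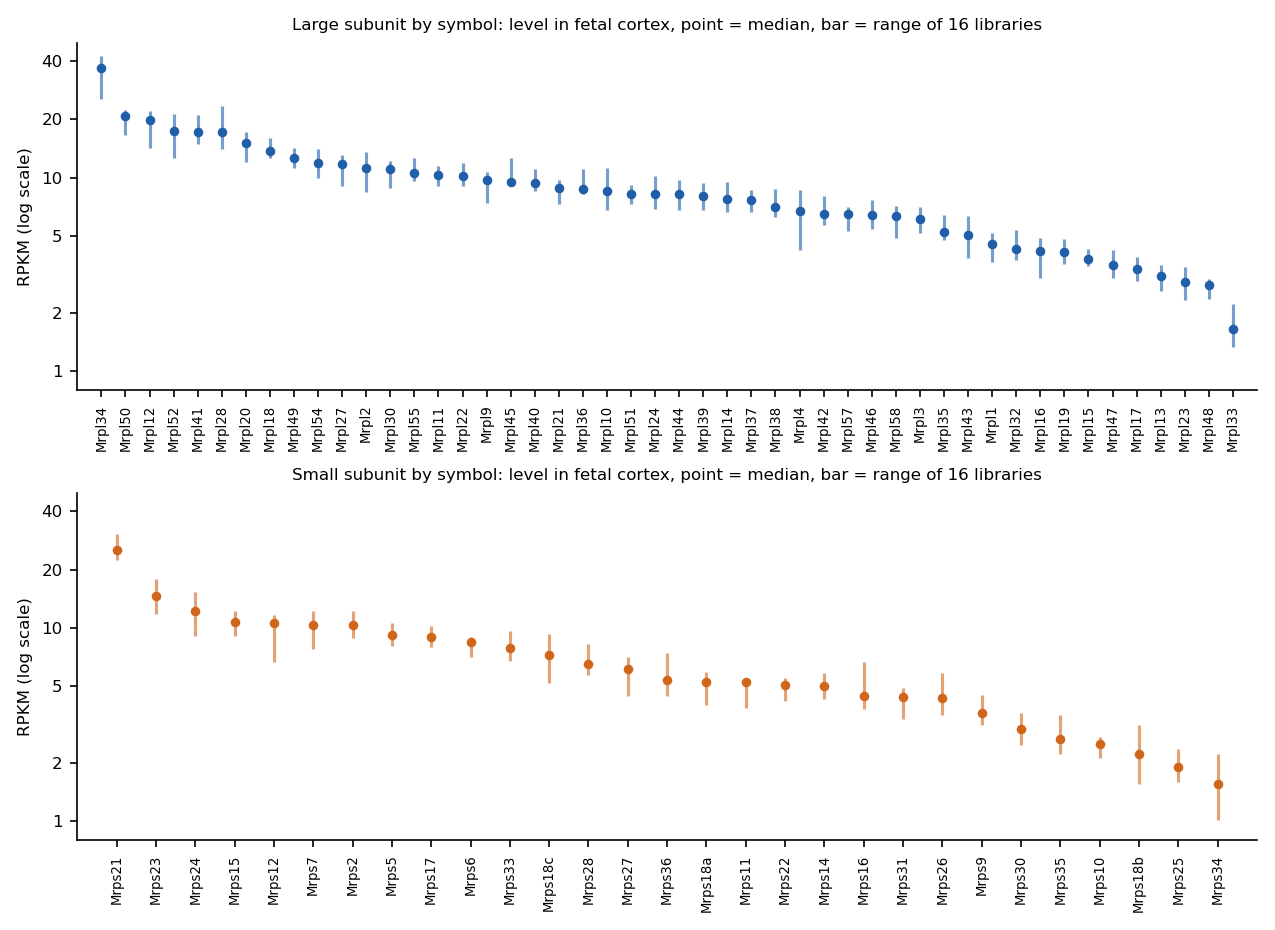
Level of each gene in RPKM, by merged exon length, on a log scale, with large-subunit symbols in the upper panel and small-subunit symbols in the lower panel. Points are medians and bars span the lowest to the highest of 16 libraries; Mrpl53, whose median is 0, is not drawn. Mrpl34 (37.1 RPKM) and Mrps21 (25.3 RPKM) lead, and most bars are short beside the distance between the ends of the family.

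Members varied little between libraries compared with the distance between genes. Leaving out Mrpl53, the highest library exceeded the lowest by 1.21-fold for Mrpl15, the steadiest member, and by 2.19-fold for Mrps34, the most variable. Mrpl4, whose protein lines the exit tunnel, spanned 2.04-fold and Mrps12 1.74-fold.

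Summed over the large subunit, the level was 433 and 406 RPKM in male controls and 484 and 458 RPKM in female controls. The large-subunit sum was 413 and 395 RPKM in female dual libraries, below all other female libraries, of which the lowest had 445 RPKM. Male dual libraries had 411 and 440 RPKM, within the range of the other males (406 to 473 RPKM). The small-subunit sum was 198 and 192 RPKM in male controls, 224 and 211 RPKM in female controls and 189.5 and 191 RPKM in the female dual libraries. The lowest of the other female libraries had 199.8 RPKM. Male dual libraries had 191 and 207 RPKM for the small subunit, against 192 to 218 RPKM in the other males. The ratio of the large to the small sum stayed between 2.07 and 2.23 with a median of 2.16. Its lowest value was in female dual replicate 2, and its 2 highest in a female paternal and a female maternal library. Among the males, the paternal libraries held both the highest (2.20) and the lowest (2.10) ratio. The sums describe these libraries and were not tested, since the genes were chosen with earlier results known.

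**Figure D2:**
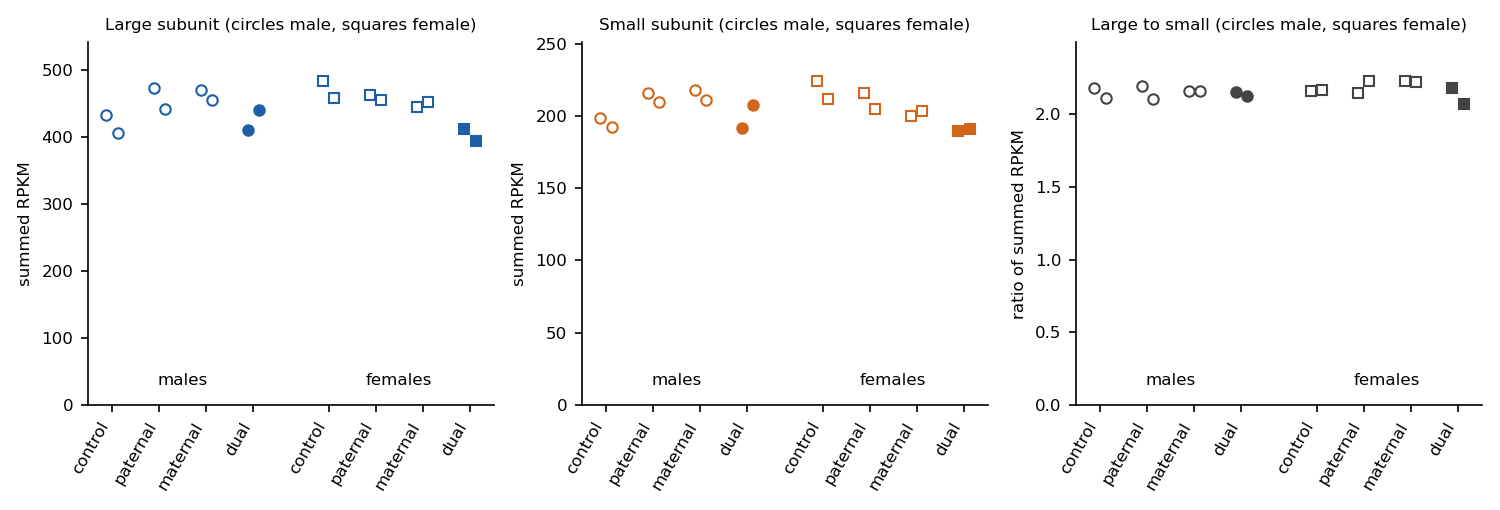
Summed level of the large-subunit and the small-subunit genes in RPKM, and the ratio of the 2 sums, for each library. Circles are males, squares are females and filled symbols are dual exposure; each symbol is 1 library. Both female dual squares lie below the 6 other female squares for both sums, and the ratio keeps to 2.07 to 2.23.

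With exposure of the father alone, no member passed the test in either direction by edgeR's quasi-likelihood test with Benjamini-Hochberg adjustment (0 of 77, where 0% of all 21543 genes were called). DESeq2 called 0 members and 18 of all genes, and at an unadjusted p under 0.05 edgeR counted 2 members and 1821 genes. The differences are male and female differences averaged with equal weight. The median log2 difference over members was 0.04 (47 of 77 above 0), against -0.01 over all genes. It was 0.05 in the large and 0.01 in the small subunit. The members of smallest p on the positive side were Mrps30 (log2 difference 0.20 ± 0.08 SE), Mrps35 (0.21 ± 0.09) and Mrps24 (0.17). On the negative side they were Mrpl24 (-0.17 ± 0.09), Mrps34 (-0.24 ± 0.19) and Mrps10 (-0.09). The adjusted p of these 6 by edgeR was between 0.531 and 0.787. Mrps35 had 30.7 and 24.4 CPM in male paternal libraries against 20.5 and 21.01 CPM in male controls. In females it had 24.4 and 20.9 CPM against 24.3 and 20.5 CPM, so the groups overlapped there.

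With exposure of the mother alone, 0 of 77 members passed in either direction by edgeR's test with Benjamini-Hochberg adjustment (0% of all genes called). DESeq2 called 0 members and 2 of all genes, and at an unadjusted p under 0.05 edgeR counted 1 member and 817 genes. The median over members was 0.02 (45 of 77 above 0), against -0.0032 over all genes, with 0.03 in the large and 0.01 in the small subunit. The smallest p-values on the positive side belonged to Mrps30 (0.21 ± 0.08 SE), Mrpl10 (0.20 ± 0.11), which anchors the stalk, and Mrpl52 (0.15). On the negative side they belonged to Mrpl33 (-0.15 ± 0.11), Mrpl43 (-0.18 ± 0.13) and Mrps9 (-0.08). Their edgeR adjusted p was 0.998 in each case. Mrps30 was at 23.4 and 22.3 CPM in male maternal libraries against 18.5 and 20.2 CPM in male controls, and at 20.5 and 19.8 CPM in female maternal libraries against 19.0 and 16.4 CPM in female controls. The maternal libraries lay above the controls of the same sex, and the difference did not pass. The paternal, maternal and dual comparisons use the same 4 control libraries, so their values for a gene are not independent.

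**Figure D3:**
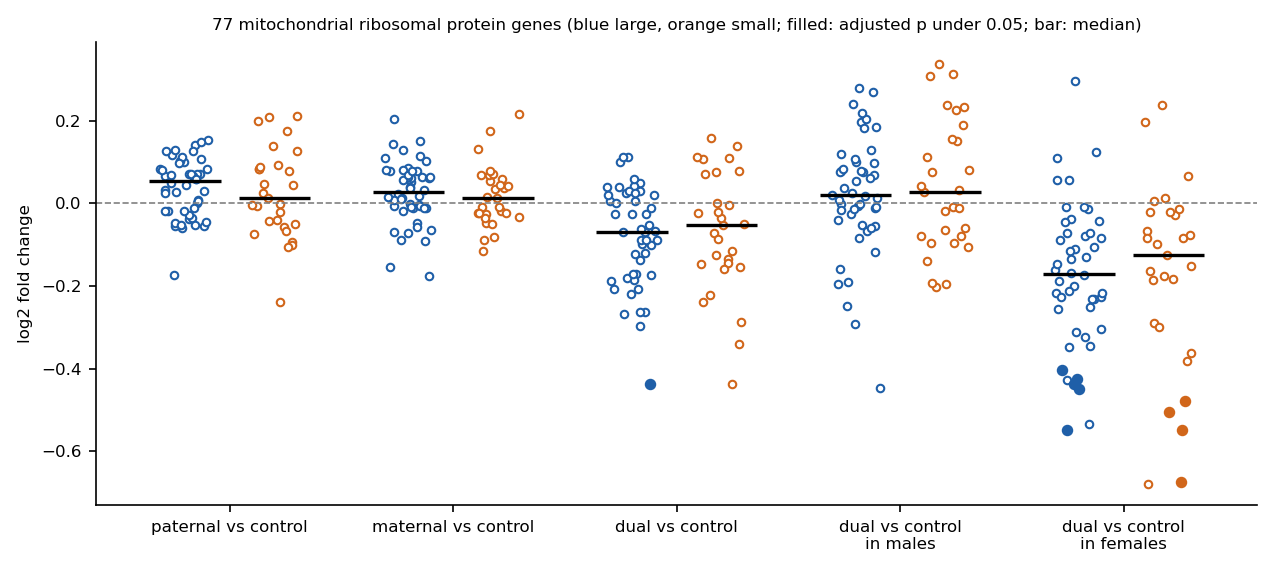
Log2 difference from control for the 77 tested genes in 5 comparisons, with large-subunit genes in blue and small-subunit genes in orange. Each point is a gene, filled where the edgeR adjusted p was under 0.05, and the black bars are medians. The medians lie near 0 in the paternal, maternal and male dual comparisons and at -0.17 (large) and -0.13 (small) in dual females, which holds 9 filled points. The medians are -0.07 (large) and -0.05 (small) for dual exposure over both sexes, where Mrpl4 is the filled point.

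Exposure of both parents is given for each sex. In males no member passed in either direction by edgeR's test with Benjamini-Hochberg adjustment (0 of 77, where 0% of all genes were called). DESeq2 called 0 members and 1 of all genes, and at an unadjusted p under 0.05 edgeR counted 5 members and 1048 genes. The male median over members was 0.02, with 42 of 77 above 0, against -0.01 over all genes. Those of smallest p on the positive side were Mrpl3 (0.28 ± 0.12 SE), Mrps35 (0.31 ± 0.14) and Mrpl39 (0.27 ± 0.13). On the negative side they were Mrpl4 (-0.45 ± 0.16), Mrpl52 (-0.29 ± 0.12) and Mrpl37 (-0.19 ± 0.11), all at an edgeR adjusted p of 0.942. Mrpl4 was at 11.1 and 15.4 CPM in male dual libraries and at 18.2 and 17.7 CPM in male controls. Mrpl52 was at 13.9 and 15.3 CPM against 18.9 and 16.8 CPM. Neither gene overlapped between the 2 groups, and the male dual libraries were below all 6 other male libraries for both.

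In females 9 of 77 members passed the edgeR test with Benjamini-Hochberg adjustment, all of them lower with dual exposure (11.7% of the members tested). Over all genes 15.0% were called, 9.34% higher and 5.64% lower. They were 5 of 48 large-subunit and 4 of 29 small-subunit genes. The female median over members was -0.16, with 67 of 77 below 0, against 0.02 over all genes. It was -0.17 in the large and -0.13 in the small subunit. Over all members it was -0.09 without female control replicate 1, -0.23 without female control replicate 2, -0.08 with protein-coding genes alone and 0.17 with the share of TEC and sense-intronic counts as a covariate. By origin, the genes called were 5 of 30 large-subunit genes with a bacterial homologue, 0 of 20 found only in mitochondria (4 at an unadjusted p under 0.05), 3 of 16 small-subunit genes with a bacterial homologue and 1 of 10 found only in mitochondria.

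The member with the smallest p was Mrps12 (ENSMUSG00000045948), a homologue of the bacterial protein at the decoding centre. It had 6.93 and 7.38 CPM in female dual libraries and 11.04 and 11.8 CPM in female controls. The other female libraries had 9.55 to 12.1 CPM, so both dual libraries were the lowest of the females. The log2 difference was -0.68 ± 0.14 (SE, edgeR adjusted p = 0.00376). Mrps7 (ENSMUSG00000046756), a homologue of a bacterial protein of the small-subunit head, had 16.1 and 16.7 CPM against 23.9 and 24.2 CPM in female controls, a difference of -0.55 ± 0.12 (adjusted p = 0.00681). In the paternal and maternal females Mrps7 was at 19.3 to 20.4 CPM, below the female controls and above the dual libraries. Mrps23, a protein found only in mitochondrial ribosomes, had 19.7 and 18.4 CPM against 28.0 and 25.9 CPM (-0.50 ± 0.11, adjusted p = 0.00599). The paternal and maternal females of Mrps23, at 21.9 to 23.5 CPM, were also below the female controls and above the dual libraries.

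Mrps24 (ENSMUSG00000020477), whose protein lies near the mRNA entry, had 13.3 and 14.7 CPM in female dual libraries and 17.9 and 21.1 CPM in female controls (-0.48 ± 0.13, edgeR adjusted p = 0.0204). Among the large-subunit genes, Mrpl34 (ENSMUSG00000034880) had 16.8 and 15.5 CPM against 24.0 and 23.2 CPM (-0.55 ± 0.13, adjusted p = 0.0121). For Mrpl9, another gene with a bacterial homologue, the values were 19.99 and 20.3 CPM against 29.0 and 26.1 CPM (-0.45 ± 0.12, adjusted p = 0.0209). In all 3 genes the dual libraries were the lowest of the 8 female libraries. The stalk gene Mrpl12 fell from 31.8 and 34.0 CPM to 24.8 and 24.2 CPM (-0.42 ± 0.13, adjusted p = 0.0338), and Mrpl28 from 27.7 and 28.4 CPM to 21.2 and 20.3 CPM (-0.44 ± 0.13, adjusted p = 0.0353). Mrpl27, a homologue of the bacterial protein that reaches the peptidyl transferase centre, had 8.89 and 10.4 CPM against 12.9 and 12.7 CPM (-0.40 ± 0.13, adjusted p = 0.0498). It was the last to pass and is named after its value was seen.

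Several members had differences of like size that did not pass. Mrps34 had the lowest log2 difference of the family in females (-0.68 ± 0.27, edgeR adjusted p = 0.0948), on an exon sequence largely shared with its neighbours. Mrpl43 was at -0.53 ± 0.18 (adjusted p = 0.0560) and Mrpl4 at -0.43 ± 0.15 (adjusted p = 0.0653). On the other side of 0, Mrpl33, a homologue of a small bacterial large-subunit protein, had 16.1 and 16.2 CPM in female dual libraries against 11.2 and 15.1 CPM in female controls (0.30 ± 0.14, adjusted p = 0.178). Mrps9 had 25.9 and 22.5 CPM against 21.4 and 19.7 CPM (0.24 ± 0.12, adjusted p = 0.201). Mrpl58, a peptidyl-tRNA hydrolase that rescues stalled ribosomes, was at -0.23 ± 0.15 (adjusted p = 0.317). Of the large-subunit proteins with small-subunit symbols, Mrps30 was at -0.01 ± 0.11 and Mrps18a at -0.13 ± 0.14, the latter near the small-subunit median. Mrps36 was at 0.20 ± 0.20.

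Without a test of each gene, both female dual libraries were below all 6 other female libraries for 27 of the 77 members (35.1%), against 13.8% of all genes. They were above all 6 for 3 members (3.90%), Mrpl33, Mrps36 and Mrps9, against 21.1% of all genes. In males both dual libraries were below all 6 others for 6 members (7.79%, against 4.47% of all genes) and above for 1 (1.30%, against 4.62%). Mrpl4, Mrpl27 and Mrpl52 were in the lower set of both sexes.

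The female calls depended on both dual libraries and on some of the settings. DESeq2 called 8 members, and so did edgeR with the size factors of DESeq2 (14.8% and 14.7% of all genes). Without the filter and with a replicate block 9 were called (9.69% and 15.1% of all genes). In these 4 fits all members called were lower. Leaving out female dual replicate 1 left 4 members called (8.79% of all genes), and leaving out female dual replicate 2 left 2 (5.43% of all genes). Mrps12 and Mrps7 stayed called whichever library was left out. Without female dual replicate 2 the adjusted p was 0.0675 for Mrps23 and 0.104 for Mrpl34. The other 5 were lost without either dual library, at adjusted p between 0.0610 and 0.260. Leaving out female control replicate 1 ended the calls of Mrpl9 (0.0819), Mrpl28 (0.0516) and Mrpl27 (0.108). Leaving out female control replicate 2 ended those of Mrps24 (0.0875), Mrpl12 (0.0728), Mrpl28 (0.0564) and Mrpl27 (0.0718), and without female maternal replicate 2 that of Mrpl28 was 0.0502. Mrpl27 was lost in 14 of 16 such fits. With libraries scaled by their totals 4 members were called (9.46% of all genes), and with protein-coding genes alone 3 (4.73%). With the share of TEC and sense-intronic counts as a covariate 0 members and 0% of all genes were called. Fitted on the groups compared alone, 0 members and 5.04% of all genes were called, with Mrps12 at -0.71 (adjusted p = 0.0681) and Mrps7 at -0.59 (adjusted p = 0.0558). The share of TEC and sense-intronic counts is carried largely by the 2 female dual libraries, so it and dual exposure in females cannot be told apart.

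**Figure D4:**
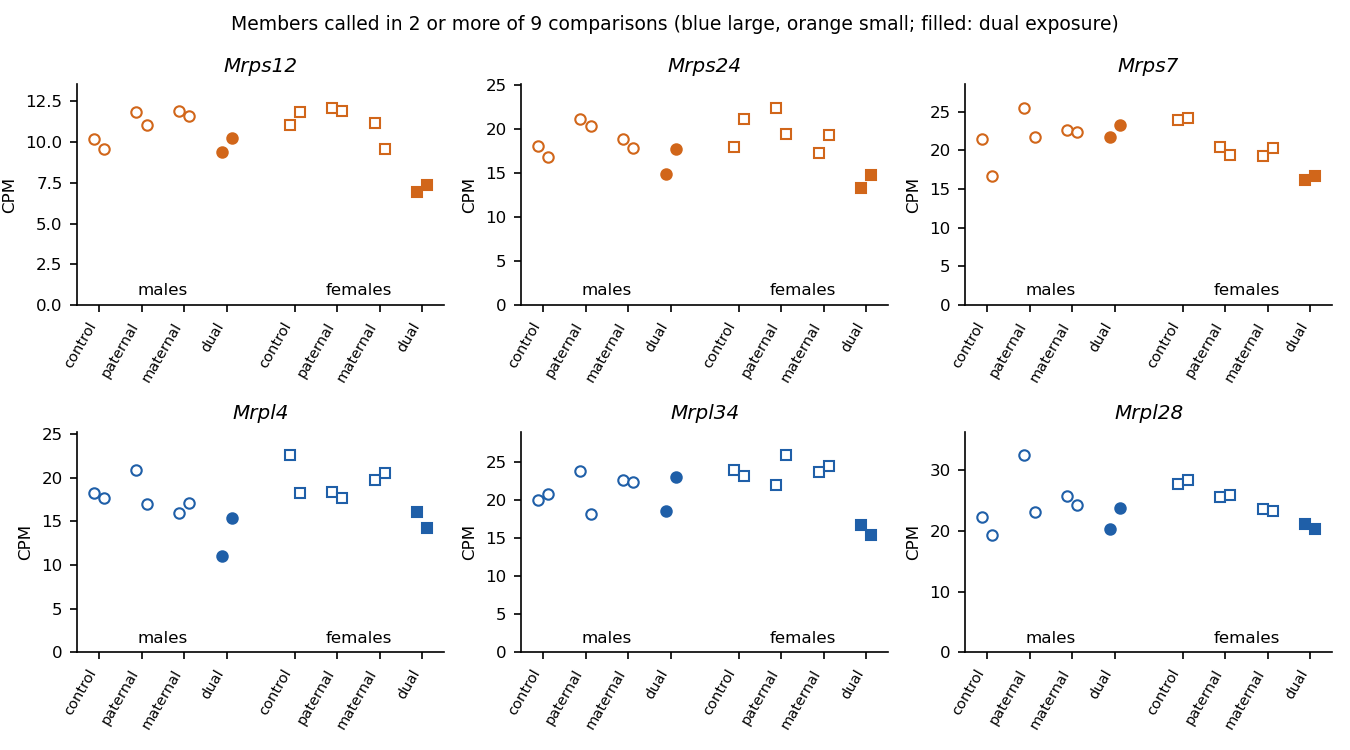
CPM in each library for the 6 members called in 2 or more of 9 comparisons, small-subunit genes in orange and large-subunit genes in blue. Circles are males, squares are females, filled symbols are dual exposure and each symbol is 1 library. For all 6 genes both female dual squares lie below the other 6 female squares, whereas both male dual circles lie below all other male circles for Mrpl4 alone.

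The difference between the sexes was tested directly as the male minus the female effect of dual exposure. Sex goes with depth and with the level of mitochondrial rRNA, as given above. By edgeR with Benjamini-Hochberg adjustment 1 of 77 members passed, with the male effect higher, where 3.50% of all genes were called (0.733% higher and 2.76% lower). The gene was Mrps7, with a male effect of 0.23 ± 0.13, a female effect of -0.55 ± 0.12 and a difference of 0.78 ± 0.18 (adjusted p = 0.0254). Mrps7 in male dual libraries, 21.7 and 23.3 CPM, was above the male controls at 21.4 and 16.7 CPM. Of the 2 controls, replicate 2 was the low one, and without it the adjusted p of Mrps7 was 0.168. It was 0.124 without male dual replicate 2, 0.0635 without female dual replicate 1 and 0.0770 without female dual replicate 2. The count of members called rose without male control replicate 1 and without female control replicate 2. The share of all genes called was also higher in both fits. Mrps12, with male dual libraries at 9.40 and 10.3 CPM and male controls at 10.2 and 9.55 CPM, had a male difference of -0.01 ± 0.15. The median male minus female difference over members was 0.21 with 60 of 77 above 0, against -0.04 over all genes.

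Gene by gene, the male and female effects of dual exposure were set side by side. Across the 77 members Pearson's r between the 2 was 0.12 and Spearman's rho was 0.11. This is a description across genes, which share the libraries and are not independent replicates, and the sexes differ in depth and in mitochondrial rRNA. Both effects were below 0 for 30 members, only the female effect for 37, only the male effect for 5, and both were above 0 for 5.

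**Figure D5:**
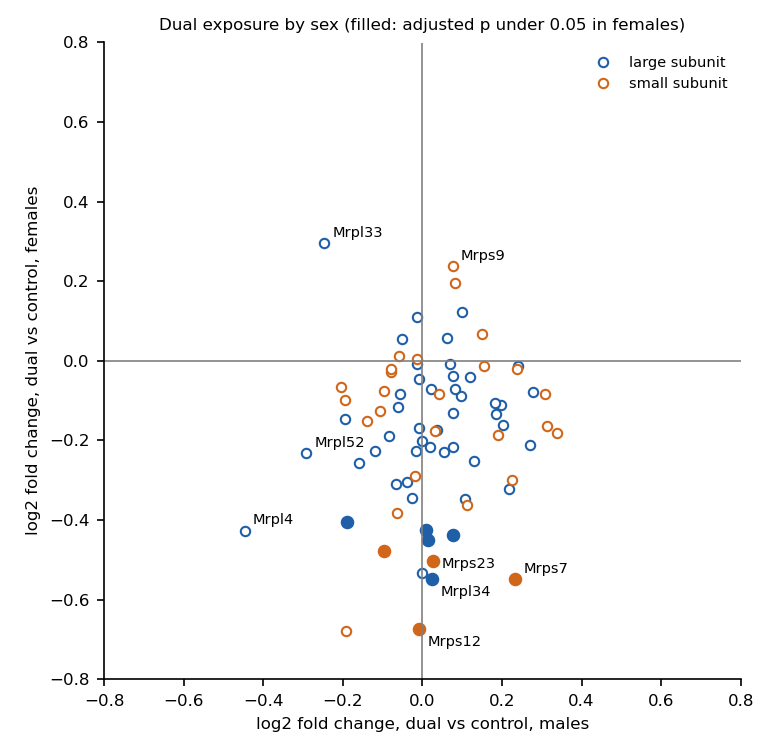
Log2 difference of dual exposure from control in females (vertical) against males (horizontal) for the 77 tested genes. Each point is a gene, blue for the large and orange for the small subunit, and filled where the edgeR adjusted p in females was under 0.05. Most points lie below the horizontal zero line and on both sides of the vertical one; Mrpl4 and Mrpl52 are lower in both sexes.

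Averaged over the sexes, dual exposure against control called 1 of 77 members by edgeR with Benjamini-Hochberg adjustment, where 3.36% of all genes were called (2.72% higher and 0.641% lower). It was Mrpl4 (ENSMUSG00000003299), at 14.2 ± 2.21 CPM in the dual and 19.2 ± 2.26 CPM in the control libraries (SD, n = 4 each). Its log2 difference was -0.44 ± 0.11 (SE, adjusted p = 0.0371), near the same size in males (-0.45) and in females (-0.43: 16.05 and 14.3 CPM against 22.5 and 18.2 CPM). The 4 dual libraries were below the 4 controls without overlap in either sex. The call was lost in 9 of 16 fits that left out a library, with adjusted p from 0.0533 to 0.210. Those libraries were male control replicates 1 and 2, male dual replicate 1 and every female paternal, maternal and dual library. Without female control replicate 1 more members were called, and a larger share of all genes was called too. In males alone, without both female dual libraries, the adjusted p of Mrpl4 was 0.953.

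Set against the paternal group, dual exposure called 4 of 77 members lower by edgeR with Benjamini-Hochberg adjustment, where 8.81% of all genes were called (6.65% higher and 2.16% lower). This comparison and the next share the dual libraries with those above. Mrps24 was at 15.2 ± 1.88 CPM in dual and 20.8 ± 1.24 CPM in paternal libraries (SD, n = 4 each), a difference of -0.46 ± 0.09 (adjusted p = 0.00557). Mrps12 was at 8.49 ± 1.59 CPM against 11.7 ± 0.454 CPM, with -0.48 ± 0.10 (adjusted p = 0.00616). Both calls held whichever library was left out. Mrpl4 (-0.38 ± 0.11, adjusted p = 0.0400) and Mrpl28 (-0.32 ± 0.10, adjusted p = 0.0485) passed as well. Mrpl28, at 32.4 CPM in male paternal replicate 1 and 23.1 to 25.9 CPM in the other 3 paternal libraries, was lost in 12 of 16 fits that left out a library, with an adjusted p of 0.265 without that one. Mrpl4 was lost in 9 of 16, with adjusted p up to 0.215 without male dual replicate 1. Without both female dual libraries, in males alone, 0 members were called, with -0.35 for Mrps24 (adjusted p = 0.583), -0.22 for Mrps12 (adjusted p = 0.731) and a median over members of -0.09. The count was lower without male control replicate 2, male paternal replicate 1, male dual replicate 1 or either male maternal library. The same was true without each of the female paternal, maternal and dual libraries. It was higher without male paternal replicate 2, male dual replicate 2 or either female control. The share of all genes called moved the same way except without male paternal replicate 2 and without male dual replicate 2. In those fits the count rose and the share of all genes fell.

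Set against the maternal group, dual exposure called 3 of 77 members lower by edgeR with Benjamini-Hochberg adjustment, where 5.76% of all genes were called (4.42% higher and 1.34% lower). Mrpl52, which exists only in mitochondrial ribosomes, was at 16.4 ± 2.21 CPM in dual and 21.8 ± 2.07 CPM in maternal libraries (SD, n = 4 each), a difference of -0.41 ± 0.08 (adjusted p = 0.00669). Male maternal libraries of Mrpl52 were the highest of all, at 23.6 and 23.5 CPM, and male dual libraries the lowest, at 13.9 and 15.3 CPM. In females the maternal libraries had 20.6 and 19.5 CPM and the dual libraries 18.9 and 17.4 CPM. Among the 16 fits that left out 1 library the call was lost without male dual replicate 1, at an adjusted p of 0.0526. It was also lost with protein-coding genes alone (-0.37, adjusted p = 0.0640) and with the share of TEC and sense-intronic counts as a covariate (-0.13, adjusted p = 1). Mrps12 (-0.39 ± 0.10, adjusted p = 0.0275) and Mrpl34 (-0.35 ± 0.10, adjusted p = 0.0457) passed too and were lost in 6 and 10 of 16 such fits. Without both female dual libraries, in males alone, 0 members were called. The male difference of Mrpl52 was then -0.69, larger than over both sexes, at an adjusted p of 0.625. The count was lower without male dual replicate 1, female paternal replicate 2 or any 1 of the male maternal, female maternal or female dual libraries. It was higher without male dual replicate 2 or either female control. The share of all genes called was also lower without male dual replicate 1 and higher without either female control. Without male dual replicate 2 the share of all genes was lower although the count was higher.

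Non-additivity, which takes both single-parent effects away from the dual effect, called 1 of 77 members by edgeR with Benjamini-Hochberg adjustment, where 4.21% of all genes were called (3.49% higher and 0.724% lower). Mrps12 had effects of 0.14 ± 0.10 with paternal, 0.05 ± 0.10 with maternal and -0.34 ± 0.10 with dual exposure, which gives -0.53 ± 0.14 (adjusted p = 0.0386). In males alone, without both female dual libraries, the value was -0.47 and the adjusted p 0.360, so the size was near that over both sexes and the call was lost. The call was lost in 10 of 16 fits that left out a library, with adjusted p up to 0.114 without male dual replicate 1. The count went to 0 without male control replicate 2, male paternal replicate 1, either male maternal library, male dual replicate 1, either female paternal library, female maternal replicate 1 or either female dual library. It was 2 without male paternal replicate 2, and 3 without male control replicate 1, male dual replicate 2 or either female control.

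Over the 9 comparisons, 11 members were called at least once and 6 in 2 or more, with 19 calls in all. Of these, 17 were lower values with dual exposure, 1 was the non-additivity of Mrps12 and 1 the sex difference of Mrps7. Mrps12 was called in 4 comparisons, and Mrps24, Mrps7, Mrpl4, Mrpl34 and Mrpl28 in 2 each. The comparisons with dual exposure share the same 4 dual libraries, so repeated calls of a gene are not separate observations. In females the 9 genes called had shorter exon sequence than the other 68, with a median of 1466 against 2746 nucleotides, and a higher level, with a median of 12.3 against 6.50 RPKM. Across the 77 members Spearman's rho of the female log2 difference was 0.38 with exon length and -0.37 with RPKM, given as a description over genes of the same libraries. By the principal transcript the medians were 1068 against 1284 nucleotides and 17.0 against 11.6 RPKM, and rho was 0.15 and -0.11.

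The promoters of members called repeatedly are shown to let their sequence be read beside the counts. The table held 5 of the 6 members called in 2 or more comparisons (all but Mrpl4), and the 3 shown are those that hold 1 or more of the motifs searched. They run from 250 bases before to 50 bases after the annotated start, from the RefSeq table on GRCm38.p6, another build than that of the counts. Capitals mark matches on either strand to AAGATGGC, bound by YY1, to the GC box GGGCGG and to the TATA box. The letters searched for the TATA box were TATAAA. The region of Mrps12 is chr7:28741772-28742071 on the minus strand, that of Mrps24 chr11:5707652-5707951 on the minus strand, and that of Mrps7 chr11:115603890-115604189 on the plus strand.
Mrps12: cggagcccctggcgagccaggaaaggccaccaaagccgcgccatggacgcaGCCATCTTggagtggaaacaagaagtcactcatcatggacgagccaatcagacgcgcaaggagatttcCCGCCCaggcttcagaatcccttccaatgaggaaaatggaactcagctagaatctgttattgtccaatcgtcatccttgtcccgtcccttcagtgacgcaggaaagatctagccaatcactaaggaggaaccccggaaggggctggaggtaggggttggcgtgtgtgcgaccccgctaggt
Mrps24: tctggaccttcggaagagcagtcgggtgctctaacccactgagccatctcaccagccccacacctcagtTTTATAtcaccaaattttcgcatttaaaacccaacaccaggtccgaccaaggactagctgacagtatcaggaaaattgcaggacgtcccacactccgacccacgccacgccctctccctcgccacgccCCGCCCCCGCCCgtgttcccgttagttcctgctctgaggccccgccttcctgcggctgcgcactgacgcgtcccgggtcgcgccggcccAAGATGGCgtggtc
Mrps7: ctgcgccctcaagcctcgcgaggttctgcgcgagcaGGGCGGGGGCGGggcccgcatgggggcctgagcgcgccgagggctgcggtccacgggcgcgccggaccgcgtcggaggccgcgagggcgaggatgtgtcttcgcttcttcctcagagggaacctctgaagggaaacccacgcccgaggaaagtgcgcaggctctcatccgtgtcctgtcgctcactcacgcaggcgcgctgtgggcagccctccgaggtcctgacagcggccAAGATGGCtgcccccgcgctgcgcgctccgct

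All 3 sequences, which were shown because they hold a searched motif, hold AAGATGGC. Its first base lies at 19 in Mrps7 and at 37 in Mrps24, counted from the start on the gene's strand, and at -199 in Mrps12, on the opposite strand. The neighbouring gene Sars2 starts 172 nucleotides from Mrps12 in the opposite direction, so the match at -199 lies near the start of Sars2. The other called members with a promoter in the table did not hold AAGATGGC: Mrpl9, Mrpl12, Mrpl27, Mrpl28, Mrpl34, Mrpl52 and Mrps23. Over the family, 69 members had a promoter in the table and were compared with 16500 protein-coding genes, both strands being searched and overlaps between motifs allowed. AAGATGGC was present in 17.4% of members and 3.6% of protein-coding promoters, and the ETS-type letters ACTTCCG in 24.6% and 9.8%. The nuclear respiratory factor 1 letters CGCATGCG were in 10.1% and 2.9%. The GC box was about as frequent in both (49.3% and 51.0%), and TATAAA was in 7.2% of members and 14.3% of the others. Mrpl34 and Mrpl28 held none of the 5. These are matches of letters, with no measurement of binding.

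Many members start next to another gene in the opposite direction. In the GENCODE M21 annotation 33 of 78 members (42.3%) had a protein-coding gene starting head-to-head within 1000 nucleotides, against 10.9% of 21951 protein-coding genes. Mrps12 and Sars2, the mitochondrial seryl-tRNA synthetase, start 172 nucleotides apart. In females Sars2 had 8.17 and 5.63 CPM with dual exposure and 8.08 and 8.71 CPM in controls, a log2 difference of -0.28 ± 0.19 (edgeR adjusted p = 0.358) beside the -0.68 of Mrps12. Gga3, the partner of Mrps7, was at -0.10 ± 0.09 (adjusted p = 0.505). Across the 31 distinct pairs with both genes tested, Pearson's r between the 2 female differences was -0.05, as a description across genes. Of the partners, 3 were called lower: Tcp1 beside Mrpl18, Ndufs6 beside Mrpl36 and Fau beside Mrpl49, and those 3 members were not called. Mrpl46 and Mrps11 start against each other and were at -0.23 and -0.03. Exon sequence is shared with another gene by 33 members, on the same strand by 8, and 11.9% of that of Mrps7 lies opposite Gga3 and Mif4gd. The strand setting of the counting is not given in the sources used here, so such reads cannot be assigned.

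Other genes of mitochondrial translation are given for dual exposure in females, where the members were called. Of 5 mitoribosomal proteins with other symbols, 0 passed (edgeR with Benjamini-Hochberg adjustment; 1 at an unadjusted p under 0.05). The smallest p among them was that of Dap3, a small-subunit protein, at -0.24 ± 0.09 (adjusted p = 0.0834). Among 28 assembly factors 1 was higher and 2 were lower (7.14%, near the 5.64% of all genes called lower), with a median of -0.11. Mrm2, which methylates the large mitochondrial rRNA, had 5.53 and 4.67 CPM against 7.93 and 8.13 CPM in female controls (-0.65 ± 0.17, adjusted p = 0.0181). Ngrn, which acts in large-subunit assembly, had 14.6 and 15.1 CPM against 20.7 and 20.6 CPM (-0.47 ± 0.12, adjusted p = 0.0113). Mterf3 was higher, with 26.8 and 26.9 CPM against 20.7 and 15.8 CPM (0.55 ± 0.13, adjusted p = 0.00922).

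Of 13 translation factors tested, Tufm, the mitochondrial elongation factor Tu, fell by 0.40 on the log2 scale (edgeR adjusted p = 0.00938), with 37.5 and 39.4 CPM against 52.9 and 48.7 CPM in female controls. Guf1, a GTPase of the mitochondrial ribosome, rose by 0.49 (adjusted p = 0.00315). Of 20 mitochondrial aminoacyl-tRNA synthetases 0 passed by edgeR, and 0 of 11 genes of mitochondrial transcription and its regulators did. At an unadjusted p under 0.05 there were 1 and 0, and the medians were -0.09 and -0.11. The mRNAs that the mitochondrial ribosome translates lay on the other side of 0. Of 13, 5 were called higher and 0 lower, with a median of 0.49, where 9.34% of all genes were called higher. The 13 include mt-Atp6, mt-Atp8, mt-Co2, mt-Co3, mt-Nd3 and mt-Nd4l, none of them above 12.3 CPM in any library. By contrast, mt-Co1 had 3521 to 5518 CPM. The mt-Nd6 mRNA was at 203 and 205 CPM in female dual and at 108 and 73.4 CPM in female control libraries (1.17 ± 0.19, edgeR adjusted p = 0.000917). It was at 122 to 178 CPM in the other females and at 203 and 282 CPM in male controls. Female control replicate 2 had the lowest sum of mitochondrial mRNAs among the females, at 9437 CPM. The mitochondrial rRNAs, which a total RNA kit depletes, ranged from 235 to 12342 CPM for mt-Rnr1 in males and from 8.28 to 32.8 CPM in females. Over both sexes, dual exposure against control gave 1.57 ± 0.58 for mt-Rnr1 (edgeR adjusted p = 0.142) and 2.01 ± 0.65 for mt-Rnr2 (adjusted p = 0.0992). Neither passed, and both were at an unadjusted p under 0.05. Male control replicate 1, at 235 CPM of mt-Rnr1, was far below the other male control, at 6175 CPM.

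Ribosomal proteins of the cytoplasm and subunits of oxidative phosphorylation were also called lower in the same comparison. In dual females 36 of 78 cytoplasmic ribosomal protein genes tested were called lower and 0 higher, with a median of -0.23. Among all genes 5.64% were called lower and 9.34% higher there. Of 81 nuclear genes of oxidative phosphorylation, 27 were lower and 1 was higher, with a median of -0.24. These are counts beside the 9 of 77 and median of -0.16 of the mitochondrial ribosomal proteins, and no test was made between lists.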

How the data were processed

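For each of 16 libraries the authors deposited raw counts per gene. They were made with Trimmomatic, STAR and featureCounts on GRCm39 (mm39), per the submitters' processing notes. Tool versions, annotation release, strand setting and the handling of multi-mapping reads: not given in the sources used here. Symbols were matched by ID for 52083 of 55359 genes from GENCODE M21 (GRCm38), used for names, classes, exon lengths and neighbours only. The genes described here and all gene lists were chosen with earlier results of these data known.

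Counts were tested with edgeR 4.0.16 in R 4.3.3. filterByExpr (minimum count 10, minimum total 15) kept 21543 genes, and 1 fit of 8 group means (TMM, glmQLFit, glmQLFTest, two-sided, 8 residual degrees of freedom) gave 9 comparisons. Adjusted p-values are Benjamini-Hochberg values over all genes tested, with a threshold of 0.05. Standard errors are the log2 difference divided by the root of F. CPM is TMM-scaled, and RPKM is CPM per kilobase of all exons of a gene merged. The fit was also run on simulated data, with changes larger than those of the members called. That run does not bear on differences of their size. Named are all members called (up to 8 per direction and comparison), the 3 of smallest p per direction where none was called, the 4 highest and 3 lowest per subunit, and a few of known role. Replicates differed by more than sampling noise in every group: the median squared difference in units of counting error was 1.53 to 5.65, highest in female controls.

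Alternatives were DESeq2 1.42.0, its size factors, library totals, no filter, protein-coding genes alone, a replicate block, the compared groups alone and each library left out. Added after seeing the data: a covariate for the share of TEC and sense-intronic counts, leaving out both female dual libraries, and another transcript length and set of members for the subunit ratio.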

Additional observations from a re-analysis of the deposited data

Results flagged for a closer look

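In 56 sets of 4 libraries of 1 exposure (14 quantities by 4 exposures), 4 had a library far from the other 3, where chance flags about 1 in 20. For Mrpl27 the library was male control replicate 2, with 10.99 CPM beside 12.68 to 12.85 CPM in the 3 other controls. For Mrpl4 the library was female control replicate 1, with 22.5 CPM beside 17.7 to 18.2 CPM. For Mrps23 it was male maternal replicate 1, with 26.3 CPM beside 22.97 to 23.5 CPM in the 3 others of that exposure. The summed small-subunit level was 207 RPKM in male dual replicate 2 and 189.5 to 191 RPKM in the other dual libraries. The effect of dual exposure on Mrps7 differed between the sexes, with a male minus female log2 difference of 0.78.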

How the results depend on the processing

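For paternal, maternal and male dual exposure the count of members called was 0 under every alternative run. For dual exposure over both sexes, 1 member was called, and 0 with protein-coding genes alone, with only the groups compared, with the TEC and sense-intronic share as covariate, and without both female dual libraries. In dual females 9 were called, and 8 by DESeq2 or with its size factors. There were 4 with library totals, 3 with protein-coding genes alone, and 0 with only the groups compared or with the covariate. For the sex difference 1 was called, and 0 with library totals, protein-coding genes alone, only the groups compared or the covariate. Against the paternal group 4 were called, 2 with protein-coding genes alone, and 0 with the covariate or without both female dual libraries. Against the maternal group 3 were called, 5 with only the groups compared, and 0 with protein-coding genes alone, the covariate or without both female dual libraries. For non-additivity 1 was called, 2 by DESeq2, and 0 with library totals, no filter, protein-coding genes alone, the covariate or without both female dual libraries; only the groups compared gives no separate fit there. The causes were not tested. In the comparisons with dual exposure the share of all genes called also differed between the fits. Leaving out 1 library at a time gave 0 to 4 (dual), 2 to 10 (dual females), 0 to 5 (sex difference), 2 to 7 (against paternal), 0 to 6 (against maternal) and 0 to 3 (non-additivity) members.

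The covariate, largely carried by both female dual libraries, turned the sign of 11 named values. In dual females these became 0.39 for Mrps7, 0.33 for Mrpl34, 0.18 for Mrps24, 0.49 for Mrpl9, 0.63 for Mrpl12 and 0.77 for Mrpl28. Mrpl4 became 0.17 in dual against control and 0.41 against paternal, Mrpl28 0.40 against paternal, Mrpl34 0.11 against maternal, and the sex difference of Mrps7 -0.23. Over all alternatives and all named values, 736 results stayed on the same side of the threshold, 149 no longer passed and 11 had the sign turned. The 736 include named values that did not pass in the main fit and still did not pass. All of the 149 and the 11 come from the 19 calls. With library totals the median of all genes was -0.17 in the male dual comparison and -0.28 in the sex difference, and the members' medians were -0.15 and -0.05. The labels do not say whether the replicate numbers pair the libraries. Over 28 pairs of groups the correlation of the replicate differences was -0.21 to 0.25, with 2 over 0.1, so no strong shared replicate effect was seen. With the replicate number as a block the counts were 1 for dual, 9 for dual females, 1 for the sex difference, 4 against paternal, 2 against maternal and 1 for non-additivity. The large to small ratio, 2.16, was 2.36 with subunits by structure, 1.85 from counts not divided by length, 1.82 with the length of the principal transcript and 2.20 without members sharing over 50% of exon.

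With 2 libraries per group, and as few as 15336566 counts per library in males, differences of the size of the spread between libraries were not detectable.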
